A study of Mus musculus with 71 samples.

Results

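The 10 genes described here are imprinted genes expressed in the mouse brain: Ndn, Magel2, Peg3, Snrpn, Meg3, Dlk1, Nnat, Plagl1, Grb10 and Zrsr1. They were found by gene symbol, and the symbols were chosen by a list drawn up with earlier results of these libraries known, namely the cocaine against saline differences and the levels by region. All 10 were present among the 37681 genes listed in each of the 6 tables. An imprinted gene is transcribed mainly from 1 parental copy, and a methylation mark laid down in the egg or the sperm usually sets which copy that is. Many such genes lie in clusters that share 1 imprinting control region, and in the brain several of them are known for roles in growth, feeding, maternal behavior and the hypothalamus. The reads were counted per gene and not per allele, so imprinting itself was not measured.

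The study asked how gene expression in reward regions changed after cocaine self-administration. RNA-seq was performed on nucleus accumbens (NAc), ventral tegmental area (VTA) and prefrontal cortex (PFC) of adult wild type C57BL/6 mice (substrain C57BL/6J) of both sexes, 8 weeks old at the outset. Every mouse, controls included, was first trained for food and fitted with a jugular catheter, then self-administered cocaine or saline in 21 daily sessions and was killed after 1 day or 28 days of abstinence. Each of the 12 groups held 6 libraries, except saline VTA at 28 days with 5, which gave 71 libraries with 20971967 to 49700932 reads on genes. The tissue was a micro-punch, so each library was a mixture of cells, and a lower level could not be told apart as fewer expressing cells or less RNA per cell. The labels did not say whether the 3 regions came from the same mice.

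The punches carried the markers of their labelled regions. The summed level of 5 dopamine neuron markers (Th, Slc6a3, Slc18a2, En1 and Pitx3) had a median of 1015 RPKM in saline VTA libraries at 1 day and 5.58 RPKM in NAc. RPKM is the number of reads divided by transcript length and by the total reads on genes of the library, and levels of different genes were compared only on this scale. The VTA punches were uneven. The summed level of 8 hypothalamic markers (Hcrt, Pmch, Avp, Oxt, Trh, Sim1, Foxb1 and Otp) ranged from 5.25 to 1362 RPKM among saline VTA libraries and from 13.3 to 709 RPKM among cocaine VTA libraries at 28 days. One PFC library, saline library 4 at 28 days, had 701 RPKM for 5 striatal markers against a group median of 72.0 RPKM. The cocaine comparisons in VTA and PFC at 28 days are also given below without saline library 1 or cocaine library 2 of VTA, which were the highest of their groups in hypothalamic markers, and without this PFC library.

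The 10 genes occupied 7 places in the genome, given here in mm9, the build of the tables. Ndn (chr7:69493163-69494814, plus strand) and Magel2 (chr7:69521865-69526526, plus strand) are neighboring members of the MAGE family in the cluster linked in humans to Prader-Willi syndrome. Snrpn (chr7:67127388-67285105, minus strand), which encodes the spliceosomal protein SmN, lies in the same cluster. Peg3 (chr7:6656603-6683132, minus strand) encodes a zinc finger protein of another cluster on chromosome 7. Dlk1 (chr12:110691033-110701546, plus strand), a transmembrane relative of the Notch ligands, and the long noncoding RNA Meg3 (chr12:110779211-110809936, plus strand) share a cluster in which the paternal copy gives Dlk1 and the maternal copy gives Meg3. Nnat (chr2:157385814-157388258, plus strand) encodes the membrane proteolipid neuronatin and lies inside Blcap on the opposite strand. Plagl1 (chr10:12810497-12851500, plus strand) encodes a zinc finger transcription factor, and Grb10 (chr11:11830511-11938686, minus strand) an adaptor of the insulin and growth factor receptors. Zrsr1 (chr11:22873215-22876498, plus strand) encodes a relative of a splicing factor and lies within Commd1 on the opposite strand. Whether counting used strand was not given, and 203 exonic bases of Zrsr1, or 6.18% of its exonic bases, also belonged to Commd1. In Meg3, 1228 exonic bases overlapped the opposite-strand gene Gm17639, whereas Nnat and Blcap shared 0 exonic bases, and 87 bases of Nnat overlapped an opposite-strand miRNA entry (AL672259.1).

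Promoters are shown for 4 of the genes, because Ndn, Magel2 and Peg3 had higher fitted levels after cocaine in the same VTA comparison and Meg3 was 1 of the most abundant members. The sequences are the 250 bases before the RefSeq transcription start (GRCm38.p6, gene strand, 5′ to 3′). In the promoters of Ndn (chr7:62348027-62348276) and Magel2 (chr7:62376729-62376978) the capitals mark CpG dinucleotides, the bases that DNA methylation acts on, and there were 5 and 7 of them.

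Ndn: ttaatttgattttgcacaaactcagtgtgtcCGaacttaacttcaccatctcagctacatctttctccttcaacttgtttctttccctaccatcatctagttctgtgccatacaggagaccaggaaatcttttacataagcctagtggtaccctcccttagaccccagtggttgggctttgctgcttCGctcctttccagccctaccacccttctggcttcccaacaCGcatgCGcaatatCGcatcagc
Magel2: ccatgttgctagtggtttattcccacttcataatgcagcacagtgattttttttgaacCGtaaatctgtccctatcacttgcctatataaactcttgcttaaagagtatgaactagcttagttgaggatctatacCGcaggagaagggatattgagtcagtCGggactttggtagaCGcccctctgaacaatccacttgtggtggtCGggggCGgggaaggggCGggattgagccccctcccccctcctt

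In the promoters of Peg3 (chr7:6730420-6730669) and Meg3 (chr12:109540746-109540995) the capitals mark TGACGTCA, the full cAMP response element bound by CREB. It ended 171 bases before the Peg3 start and 50 bases before the Meg3 start.

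Peg3: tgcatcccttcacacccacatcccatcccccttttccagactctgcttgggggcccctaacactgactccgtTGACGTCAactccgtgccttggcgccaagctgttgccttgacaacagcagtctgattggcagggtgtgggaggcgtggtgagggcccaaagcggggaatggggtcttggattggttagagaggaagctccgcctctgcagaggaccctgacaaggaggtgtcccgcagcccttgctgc
Meg3: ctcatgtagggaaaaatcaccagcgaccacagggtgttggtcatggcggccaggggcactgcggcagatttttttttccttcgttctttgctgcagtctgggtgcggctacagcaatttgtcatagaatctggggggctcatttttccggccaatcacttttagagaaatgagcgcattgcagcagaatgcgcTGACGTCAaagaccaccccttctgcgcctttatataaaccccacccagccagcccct

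In windows of 300 bases (250 before to 50 after the start), the table held 15 promoters for the 10 genes among 32851 in all. TGACGTCA, searched on both strands, was present in 2 of the 15 promoters, 1 each of Peg3 and Meg3, and in 1.79% of all promoters. TGCCGC is the hexamer bound in methylated form by ZFP57, which maintains imprints. It was present in 5 of the 15 promoters (1 each of Nnat, Plagl1, Grb10, Meg3 and Snrpn) and in 11.6% of all promoters. The YY1 core GCCATNTT and the NR4A element AAAGGTCA were in none of the 15 windows, against 6.05% and 1.51% of all promoters. No match of one motif overlapped a match of another in these windows. The number of CpG dinucleotides ran from 1 in the second Meg3 window to 45 in the first Grb10 window, with a median of 7 over all promoters. These matches describe letters in a window and not bound sites.

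The family spanned a wide range of abundance. Snrpn and Meg3 had the highest mean levels over the 71 libraries, 357 and 279 RPKM, above 99.5% and 99.3% of the 15017 genes whose mean reached 0.5 RPKM. Nnat, Ndn and Peg3 followed with means of 179, 128 and 85.6 RPKM. Dlk1, Grb10 and Zrsr1 had means of 36.4, 23.6 and 19.01 RPKM, and Plagl1 and Magel2 were the lowest with 3.98 and 2.01 RPKM. Magel2 rested on as few as 25 reads in a PFC library, so its values in PFC were the least precise.

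Levels in the saline libraries were described by region without a test, since the regional levels were part of how the genes were named. Among all genes whose mean reached 0.5 RPKM, the ranges of 2 regions did not overlap for 44% of genes between NAc and VTA, 24.6% between NAc and PFC and 45.7% between VTA and PFC at 1 day. The same shares at 28 days were 42%, 30.8% and 39.3%. Of the 10 imprinted genes, 6 had non-overlapping ranges between NAc and VTA at 1 day, and all 6 were higher in VTA. Between VTA and PFC there were again 6, all higher in VTA, and between NAc and PFC there were 3. At 28 days the counts were 5, 6 and 4 for the same pairs of regions, and without NAc saline library 2 the count between NAc and VTA was 8 in place of 5. Every non-overlapping gene between VTA and another region was higher in VTA at both times.

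**Figure D1:**
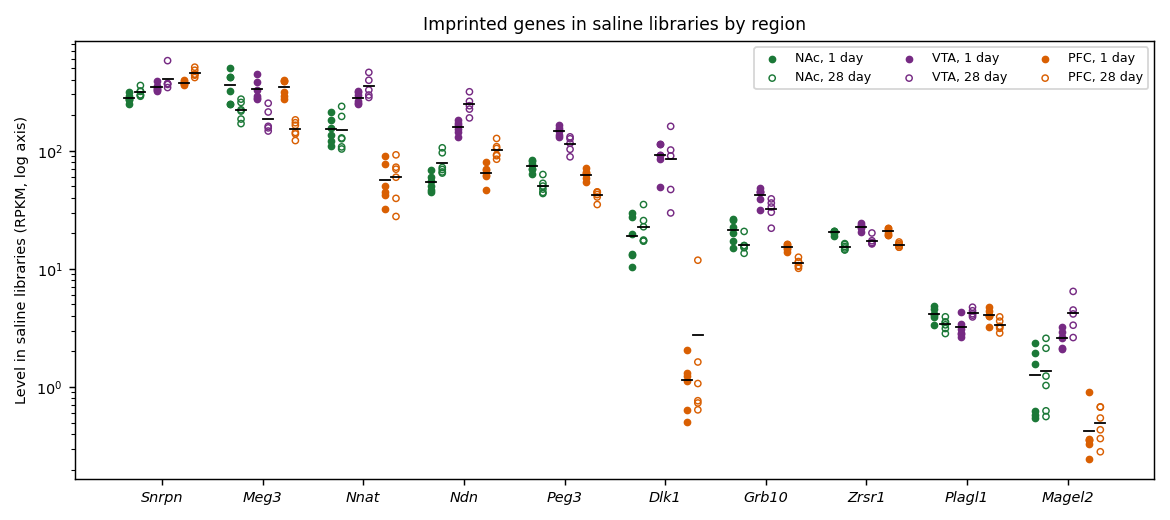
Level of each gene in every saline library (RPKM, log axis), colored by region, with filled circles for 1 day, open circles for 28 days of abstinence and a black line for the group mean. Ndn, Peg3, Grb10 and Nnat sit highest in VTA (purple), Dlk1 runs from 0.509 RPKM in a PFC library to 161 RPKM in a VTA library, and the regions overlap for Meg3, Zrsr1 and Plagl1.

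Dlk1 differed most between regions. In saline libraries at 1 day it ranged from 49.4 to 115 RPKM in VTA, with a median of 92.5, from 10.4 to 30.0 RPKM in NAc, with a median of 16.7, and from 0.509 to 2.06 RPKM in PFC, with a median of 1.18. The order VTA, NAc, PFC held without overlap at 1 day, and the VTA mean was 79.5 times the PFC mean. At 28 days VTA ranged from 29.8 to 161 RPKM and NAc from 17.2 to 35.1 RPKM, which overlapped, whereas NAc remained above PFC, where the highest library had 11.8 RPKM.

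Ndn and Magel2 shared the VTA as their highest region. Ndn ranged from 131 to 182 RPKM in VTA at 1 day, from 44.4 to 69.3 RPKM in NAc and from 46.2 to 81.0 RPKM in PFC, so NAc and PFC overlapped and VTA stood above both. Its VTA mean was 2.91 times the NAc mean at 1 day and 3.12 times at 28 days. Magel2 ranged from 2.12 to 3.24 RPKM in VTA, from 0.548 to 2.38 RPKM in NAc and from 0.246 to 0.904 RPKM in PFC at 1 day. VTA was above PFC at both times, by 6.16 times at 1 day and 8.46 times at 28 days, and above NAc without overlap at 28 days only.

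Peg3 and Grb10 had a similar regional profile. Peg3 ranged from 130.1 to 166 RPKM in VTA at 1 day, from 63.2 to 83.5 RPKM in NAc and from 54.3 to 71.5 RPKM in PFC. Grb10 ranged from 31.8 to 48.6 RPKM in VTA, from 15.1 to 26.7 RPKM in NAc and up to 16.3 RPKM in PFC. In both genes VTA stood above NAc and PFC without overlap at both times, and the VTA mean was close to 2 times the NAc mean (1.98 for Peg3 and 2.00 for Grb10 at 1 day). Nnat was also highest in VTA, at 247 to 320 RPKM, intermediate in NAc, at 109 to 214 RPKM, and lowest in PFC, at 32.4 to 89.5 RPKM. The 3 ranges of Nnat did not overlap at either time.

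Snrpn had the opposite low point. It was lowest in NAc, with 247 to 316 RPKM at 1 day, and higher in VTA, with 322 to 392 RPKM, and in PFC, with 363 to 396 RPKM, and the ranges of VTA and PFC overlapped. The PFC mean was 1.35 times the NAc mean at 1 day and 1.45 times at 28 days. Meg3, Plagl1 and Zrsr1 overlapped between all 3 regions at both times. The means of the 6 saline groups ran from 15.3 to 22.7 RPKM for Zrsr1.

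Some members also had different levels in the 2 abstinence times. In saline libraries the Ndn mean was 54.3 ± 9.35 RPKM (SD, n = 6) in NAc at 1 day and 79.1 ± 17.5 RPKM (SD, n = 6) at 28 days. Zrsr1 lay between 19.02 and 21.1 RPKM in NAc at 1 day and between 14.5 and 16.4 RPKM at 28 days. The 2 times were separate tables of different mice, and the time, the age of the mice and the handling of the libraries cannot be told apart, so these levels were not tested.

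Cocaine was then compared with saline in each region and time. For the genes in each table a model was fitted across all genes, and p-values were adjusted over all genes tested. No member passed an adjusted p of 0.05 in any of the 6 comparisons, in which 0 to 28 genes were called (0.0126% of genes in NAc, 0.186% in VTA and 0.00693% in PFC at 1 day, and 0% in each region at 28 days). At 28 days, where edgeR's quasi-likelihood test called 0 genes, an unadjusted p under 0.05 was reached by 1102 genes in NAc, 1942 in VTA and 925 in PFC, and DESeq2 called 14, 74 and 2 genes, with no member among them. The ranges of cocaine and saline libraries overlapped in all 59 pairs of gene and comparison that could be tested, where among all genes the share without overlap was 0.214% in NAc, 1.67% in VTA and 0.159% in PFC at 1 day, and 0.301%, 1.33% and 0.233% at 28 days. Magel2 in PFC at 1 day, with a mean under 0.5 RPKM, was not tested. An unadjusted p under 0.05 was reached in 13 of the 59 pairs, in 8 genes, with a higher level after cocaine in 11 of the 13. Among all genes the share under 0.05 ran from 4.01% in NAc to 15.4% in VTA, both at 1 day. The share under 0.05 with a higher level after cocaine ran from 1.64% in PFC to 11.1% in VTA, both at 1 day. Snrpn and Zrsr1 did not reach an unadjusted p under 0.05 in any comparison. Since the genes were chosen with these results known, the following values are a description.

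**Figure D2:**
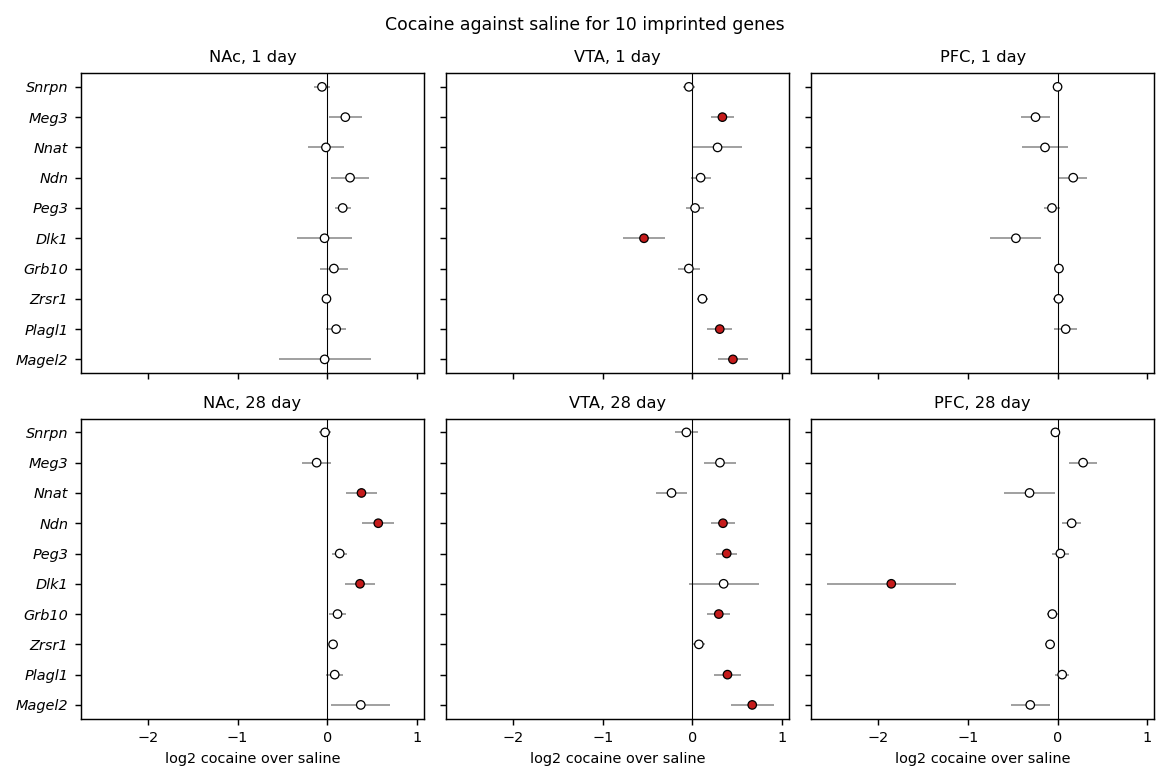
Fitted log2 cocaine over saline with its standard error for each gene in each region and time, with red points for an unadjusted p under 0.05. The most red points are in VTA at 28 days, where 5 genes lie to the right of 0, and the lone far point in PFC at 28 days is Dlk1; Magel2 has no point in PFC at 1 day.

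In VTA at 28 days, 5 of the 10 genes had an unadjusted p under 0.05, all with higher levels after cocaine: Peg3, Magel2, Plagl1, Ndn and Grb10. The background was 11.5% of all genes in either direction, 5.08% with higher and 6.39% with lower levels. The median fitted difference of the 10 genes was 0.32 on the log2 scale, against -0.03 over all 16937 genes tested.

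Peg3 had 116, 131, 126, 103 and 88.8 RPKM in the saline VTA libraries, and between 126 and 184 RPKM, with a median of 148, in the cocaine libraries. Only the lowest cocaine library lay inside the saline range. The fitted difference was 0.38 ± 0.12 on the log2 scale (SE, n = 5 and 6), with an unadjusted p of 0.0076 and an adjusted p of 0.39 by edgeR. Usp29, the neighbor of Peg3 in the same imprinted cluster, had mean levels of 16.4 RPKM after saline and 25.0 RPKM after cocaine, a log2 difference of 0.60 ± 0.13 (SE), with an adjusted p of 0.389 by edgeR.

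Ndn had 316, 225, 241, 262 and 189.7 RPKM in the saline libraries and 261 to 388 RPKM, with a median of 316, in the cocaine libraries. Saline library 1 lay as high as the middle cocaine libraries. The log2 difference was 0.34 ± 0.13 (SE), with an unadjusted p of 0.0223 and an adjusted p of 0.401 by edgeR. Magel2, next to Ndn on the chromosome, had 6.45, 3.34, 4.16, 4.48 and 2.62 RPKM in the saline libraries and 5.28 to 11.2 RPKM, with a median of 5.97, in the cocaine libraries. Saline library 1 was again inside the cocaine range, and the other 4 saline libraries were below it. The log2 difference was 0.67 ± 0.24 (SE), with an unadjusted p of 0.0162 and an adjusted p of 0.395 by edgeR.

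Plagl1 had 4.74, 4.42, 3.92, 4.06 and 4.17 RPKM in the saline libraries and 4.53 to 8.50 RPKM, with a median of 5.15, in the cocaine libraries. Its log2 difference was 0.39 ± 0.15 (SE), with an unadjusted p of 0.0202 and an adjusted p of 0.400 by edgeR. Grb10 had 33.4, 39.1, 36.1, 30.2 and 22.1 RPKM in the saline libraries and 35.8 to 43.9 RPKM, with a median of 39.9, in the cocaine libraries. Its log2 difference was 0.29 ± 0.13 (SE), with an unadjusted p of 0.0400 and an adjusted p of 0.417 by edgeR. In each of these 5 genes all 6 cocaine libraries were above the saline median, which was also so for Meg3, Zrsr1 and Snrpn, the last with a fitted difference of -0.07. The other 5 members had log2 differences between -0.23 and 0.35.

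**Figure D3:**
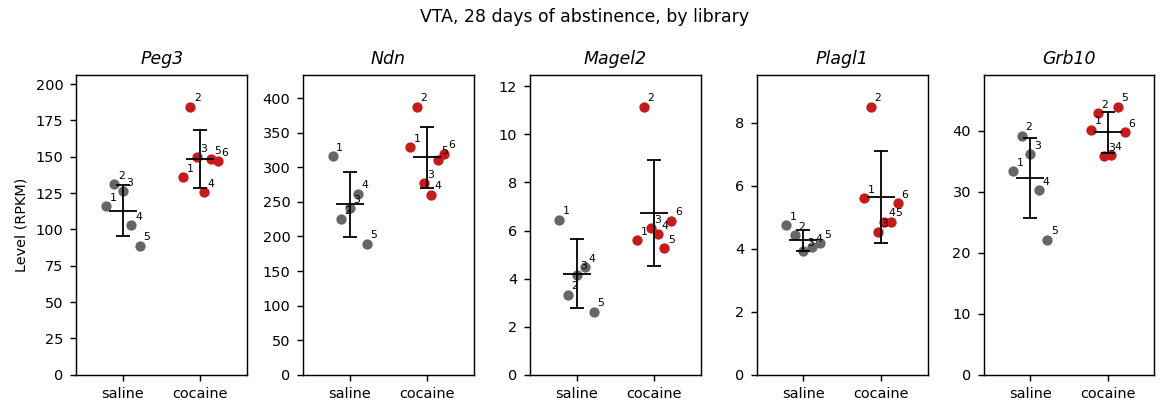
Level (RPKM) of 5 imprinted genes in each VTA library at 28 days, numbered by library, with the group mean and SD in black (5 saline, 6 cocaine libraries). Cocaine library 2 is the highest for Peg3, Ndn, Magel2 and Plagl1, saline library 1 is the highest saline library for Ndn, Magel2 and Plagl1, and the groups overlap in every panel.

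In each VTA group at 28 days, the library highest in Ndn and Magel2 was also the highest in hypothalamic markers. Cocaine library 2 had 709 RPKM for the 8 hypothalamic markers, 388 RPKM of Ndn and 11.2 RPKM of Magel2, and saline library 1 had 1362, 316 and 6.45 RPKM. This did not hold for every library rich in these markers. Cocaine library 1 had 304 RPKM of Pmch, 92.6 RPKM of Hcrt, 329 RPKM of Ndn and 5.61 RPKM of Magel2. Its Ndn level was above the group median of 316 RPKM, whereas its Magel2 level was near the low end of its group. In VTA at 1 day, cocaine library 6 had 596 RPKM of the 8 markers. Its Ndn (126 RPKM) and Magel2 (2.29 RPKM) were the lowest of its group. The highest sums came mainly from Hcrt and Pmch, at 747 and 596 RPKM in saline library 1 and 208 and 464 RPKM in cocaine library 2. In VTA at 28 days Avp did not exceed 0.98 RPKM in any library, nor Oxt 0.41 RPKM. Each of the 8 markers was above 0 in at least 1 library of both groups, but only 5 reached a mean of 0.5 RPKM after saline and 6 after cocaine. The group medians of their sum were 14.8 RPKM after saline and 71.4 RPKM after cocaine. With the log2 marker sum as a covariate, an alternative chosen after seeing the data, the log2 differences were 0.50 for Magel2, 0.24 for Ndn, 0.35 for Peg3, 0.27 for Plagl1 and 0.27 for Grb10, the last with an unadjusted p of 0.0665 by edgeR. Without cocaine library 2 the log2 differences were 0.48 for Magel2, 0.29 for Ndn, 0.32 for Peg3, 0.25 for Plagl1 and 0.28 for Grb10, and 4 members had an unadjusted p under 0.05 by edgeR, with Grb10 at 0.0673. Without saline library 1 the log2 differences were 0.88 for Magel2, 0.46 for Ndn, 0.40 for Peg3, 0.44 for Plagl1 and 0.32 for Grb10, and 6 members had an unadjusted p under 0.05. Without saline library 5, 3 members in place of 5 had an unadjusted p under 0.05, and the log2 difference of Grb10 was 0.19, from 0.29. The number of all genes under 0.05 moved as well. It was 1942 of 16937 with every library and 1118 of 16866 without cocaine library 2. Without saline library 1 it was 3732 of 17091, and without saline library 5 it was 1175 of 17068. Markers of other cell types also differed between these groups. The group median of 5 oligodendrocyte markers was 4776 RPKM after saline (3390 to 6586) and 3737 RPKM after cocaine (2320 to 4233), and that of 5 astrocyte markers was 614 RPKM (308 to 827) and 448 RPKM (258 to 726). The median of 5 endothelial markers was 152 RPKM after saline and 112 RPKM after cocaine, and that of 5 meningeal fibroblast markers was 63.0 and 25.6 RPKM, and the groups overlapped for each of the 4 lists. The part of these cell types in the values of the 5 genes was not tested.

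In VTA at 1 day, 4 members had an unadjusted p under 0.05, against 15.4% of all genes (11.1% higher and 4.29% lower after cocaine). Magel2, Meg3 and Plagl1 had higher levels after cocaine, and Dlk1 had lower levels. This fit used RPKM without TMM scaling. By edgeR with TMM on the recovered reads, 2 members had an unadjusted p under 0.05, and 1 of them was higher after cocaine. Among all genes it was 2729 of 16132, with 1535 higher, and the median log2 difference was -0.01. The median fitted difference of the 10 genes was 0.10 on the log2 scale, against 0.03 over all genes. The summed level of 5 microglia markers ranged from 72.3 to 99.3 RPKM after saline and from 47.97 to 70.8 RPKM after cocaine, without overlap, and that of 5 meningeal fibroblast markers had a median of 30.7 RPKM after saline and 82.5 RPKM after cocaine. Their part in the values of the 4 genes was not tested.

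Meg3 ranged from 274 to 449.8 RPKM after saline, with a median of 309, and from 376 to 486 RPKM after cocaine, with a median of 387. All 6 cocaine libraries were above the saline median, and saline libraries 2 and 5 lay inside the cocaine range. The log2 difference was 0.33 ± 0.13 (SE, n = 6 and 6), with an unadjusted p of 0.0235 and an adjusted p of 0.262 by limma. Magel2 ranged from 2.12 to 3.24 RPKM after saline, with a median of 2.62, and from 2.29 to 4.81 RPKM after cocaine, with a median of 3.83. Its log2 difference was 0.45 ± 0.17 (SE), with an adjusted p of 0.247 by limma, and 5 of 6 cocaine libraries were above the saline median. Plagl1 ranged from 2.68 to 4.31 RPKM after saline, with a median of 2.99, and from 2.96 to 4.99 RPKM after cocaine, with a median of 3.92. Its log2 difference was 0.31 ± 0.14 (SE), with an unadjusted p of 0.0491 and an adjusted p of 0.321 by limma. With the replicate number as a block the unadjusted p of Plagl1 was 0.103, and without cocaine library 6, which had 596 RPKM of the hypothalamic markers, it was 0.107 with a log2 difference of 0.24, both by limma. The 4 members became 2 or 1 without any single one of cocaine libraries 2, 3 and 5 or of the saline libraries. In these refits the number of all genes under 0.05 ran from 1704 to 2853, against 2323 with every library.

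Dlk1 moved with the dopamine neuron markers across the VTA punches. At 1 day it ranged from 49.4 to 115 RPKM after saline, with a median of 92.5, and from 35.9 to 80.6 RPKM after cocaine, with a median of 62.9, and all 6 cocaine libraries were below the saline median. The log2 difference was -0.54 ± 0.23 (SE), with an unadjusted p of 0.0385 and an adjusted p of 0.297 by limma. The summed level of the 5 dopamine neuron markers ranged from 498 to 1258 RPKM after saline, with a median of 1015, and from 309.7 to 765 RPKM after cocaine, with a median of 623. The library lowest in Dlk1, cocaine library 3, was also the lowest in these markers, and saline libraries 1 and 5 were the highest in both. With the log2 marker sum as a covariate, chosen after seeing the data, the log2 difference of Dlk1 was 0.09, with an unadjusted p of 0.256 by limma. The markers were themselves lower after cocaine, so this fit cannot tell the content of the punch apart from the treatment. The part of dopamine neurons in the Dlk1 values was not tested. At 28 days the lowest Dlk1 level, 29.8 RPKM in saline library 4, again came with the lowest marker sum, 305 RPKM.

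**Figure D4:**
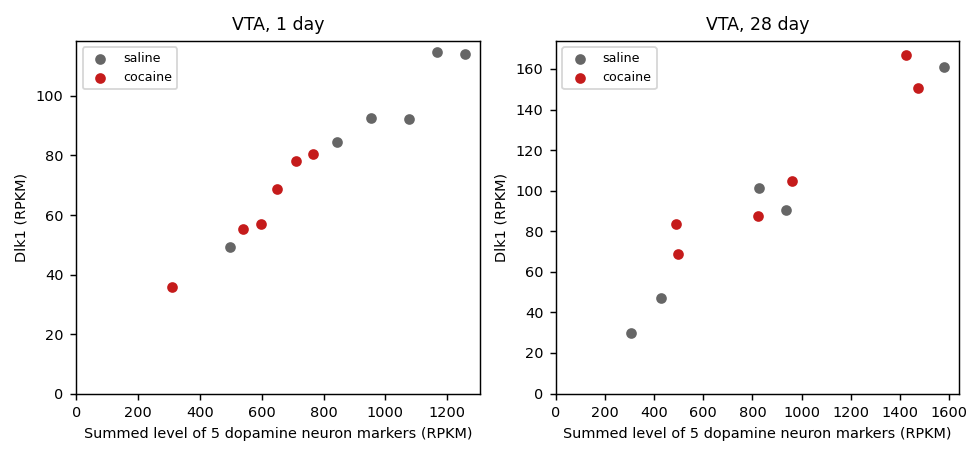
Dlk1 level (RPKM) against the summed level of 5 dopamine neuron markers (RPKM) in each VTA library at 1 day (12 libraries) and 28 days (11 libraries), gray for saline and red for cocaine. Dlk1 is higher where the markers are higher within both treatments, and at 1 day the cocaine libraries lie toward the low end of both axes.

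Nnat in VTA at 1 day had a log2 difference of 0.28 ± 0.27 (SE), with an unadjusted p of 0.327 and an adjusted p of 0.681 by limma. Its medians were 281 RPKM after saline and 306 RPKM after cocaine, and 1 cocaine library stood far above the rest. Nnat ranged from 247 to 320 RPKM after saline, and from 192 to 393 RPKM in 5 cocaine libraries, while cocaine library 6 had 834 RPKM. That library also had 582 RPKM of Pmch, the precursor of melanin-concentrating hormone of the lateral hypothalamus, and 140 RPKM of Ttr, a choroid plexus gene. Slc6a13, a meningeal fibroblast marker, was at 81.1 RPKM in it. At 28 days, VTA saline library 1 and cocaine library 2 had 596 and 464 RPKM of Pmch, with 327 and 294 RPKM of Nnat. Saline library 4 and cocaine library 4 were the highest of their groups in Nnat, at 461 and 459 RPKM. They had 1.45 and 1.08 RPKM of Pmch and 48.9 and 19.2 RPKM of Slc6a13. The part of other tissue in the Nnat value of cocaine library 6 at 1 day was not tested.

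In NAc at 28 days, Ndn, Nnat and Dlk1 had an unadjusted p under 0.05, all with higher levels after cocaine, against 6.76% of all genes (3.34% higher and 3.42% lower). The median fitted difference of the 10 genes was 0.13, against 0.00 over all genes. Ndn ranged from 64.7 to 106 RPKM after saline, with a median of 70.8, and from 65.7 to 144 RPKM after cocaine, with a median of 127. In 4 cocaine libraries it was above the whole saline range, and cocaine library 4, with 65.7 RPKM, was near its low end. The log2 difference was 0.57 ± 0.18 (SE, n = 6 and 6), with an unadjusted p of 0.0062 and an adjusted p of 0.592 by edgeR. The paper listed Ndn among the genes that differed at 28 days by its own RNA-seq analysis. That analysis combined several normalizations and test models under its own q-value rule, so its list and the adjusted p given here rest on unlike thresholds. The paper also reported a qPCR difference of Ndn in a separate cohort of mice, with no direction in the caption.

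Nnat ranged from 104 to 238 RPKM after saline, with a median of 127, and from 159 to 245 RPKM after cocaine, with a median of 199, and all 6 cocaine libraries were above the saline median. Its log2 difference was 0.38 ± 0.18 (SE), with an unadjusted p of 0.0469 and an adjusted p of 0.732 by edgeR. Dlk1 ranged from 17.2 to 35.1 RPKM after saline, with a median of 20.1, and from 19.95 to 34.8 RPKM after cocaine, with a median of 29.4. Its log2 difference was 0.37 ± 0.17 (SE), with an unadjusted p of 0.0472 and an adjusted p of 0.732 by edgeR. The NAc punches varied in cortical content. The summed level of 5 cortical excitatory neuron markers ranged from 20.1 to 174 RPKM after saline and from 4.17 to 204 RPKM after cocaine. With its log2 value as a covariate, chosen after seeing the data, the log2 difference of Ndn was 0.59 and that of Nnat 0.48, whereas that of Dlk1 was 0.23 with an unadjusted p of 0.172 by edgeR. Without saline library 2, 5 members in place of 3 had an unadjusted p under 0.05, and without any 1 of 6 other libraries (cocaine 5 and 6, and saline 3, 4, 5 and 6) there was 1. The number of all genes under 0.05 was 1102 with every library, 1321 without saline library 2 and 702 to 1295 without 1 of those 6.

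At 1 day in NAc, no member had an unadjusted p under 0.05, against 4.01% of all genes (2.76% higher and 1.25% lower), and the log2 differences ran from -0.06 to 0.25. The change of the cocaine difference from 1 to 28 days was tested directly in NAc, where both tables held counts. No member passed, with a smallest unadjusted p of 0.148, against 5.27% of all genes under 0.05 (0.0181% called). Ndn, with log2 differences of 0.25 at 1 day and 0.57 at 28 days, changed by 0.32 on the log2 scale.

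In PFC at 1 day none of the 9 members tested had an unadjusted p under 0.05, against 4.15% of all genes (1.64% higher and 2.5% lower), with log2 differences from -0.46 to 0.17. At 28 days it was reached by Dlk1 alone, against 5.66% of all genes (2.69% higher and 2.97% lower). Dlk1 ranged from 0.641 to 1.63 RPKM in 5 saline libraries, while saline library 4 had 11.8 RPKM, and the cocaine libraries ranged from 0.339 to 1.56 RPKM, with a median of 0.642. The log2 difference was -1.86 ± 0.72 (SE), with an unadjusted p of 0.0213 and an adjusted p of 0.842 by edgeR. Saline library 4 was the library with striatal markers, including 459.6 RPKM of Ppp1r1b and 45.9 RPKM of Drd2. Without it the log2 difference was -0.32, with an unadjusted p of 0.373 by edgeR, and 0 members were under 0.05. Without cocaine library 2, 4 or 6 or saline library 2, the count was 2 or 3 in place of 1. The number of all genes under 0.05 was 925 with every library, 751 without saline library 4 and 699 to 901 without 1 of the others named. The other 9 members had log2 differences from -0.31 to 0.29.

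Genes of 1 cluster were next compared across the libraries of each table, after the mean of each treatment group was removed from the log2 levels, in 24 relations. The correlation was above 0 in 17 of the 24, and 3 had an adjusted p under 0.05 by Pearson's r with a permutation test, while by Spearman's rho 0 did. Ndn and Magel2 had a Pearson r of 0.87 in VTA at 28 days (n = 11, permutation p = 0.00077, adjusted p = 0.0137) and a rho of 0.72 (permutation p = 0.0167, adjusted p = 0.144). In VTA at 1 day their r was 0.77 (n = 12, permutation p = 0.0031, adjusted p = 0.0246) and rho 0.69 (permutation p = 0.0185, adjusted p = 0.144). Without the 2 libraries farthest from the median of Ndn, r was 0.74 at 28 days and 0.42 at 1 day, so the relation at 1 day rested in part on those libraries. Outside VTA their r was 0.42 in NAc at 1 day (-0.10 without the 2 farthest libraries), -0.09 in NAc at 28 days, 0.67 in PFC at 1 day and 0.42 in PFC at 28 days, with no adjusted p under 0.05.

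Ndn and Snrpn, which lie farther apart in the cluster, had an r of 0.77 in VTA at 28 days (n = 11, permutation p = 0.00114, adjusted p = 0.0137) and a rho of 0.64 (permutation p = 0.0401, adjusted p = 0.160), with r = 0.57 without the 2 farthest libraries. In VTA at 1 day their r was 0.10, and in PFC it was -0.35 at both times. Magel2 and Snrpn had r values from -0.63 in PFC at 28 days to 0.71 in VTA at 28 days, with no adjusted p under 0.05. Dlk1 and Meg3, expressed from opposite parental copies, had r values from -0.46 to 0.64, with no adjusted p under 0.05. The VTA libraries at 28 days also differed in hypothalamic markers, as given above.

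**Figure D5:**
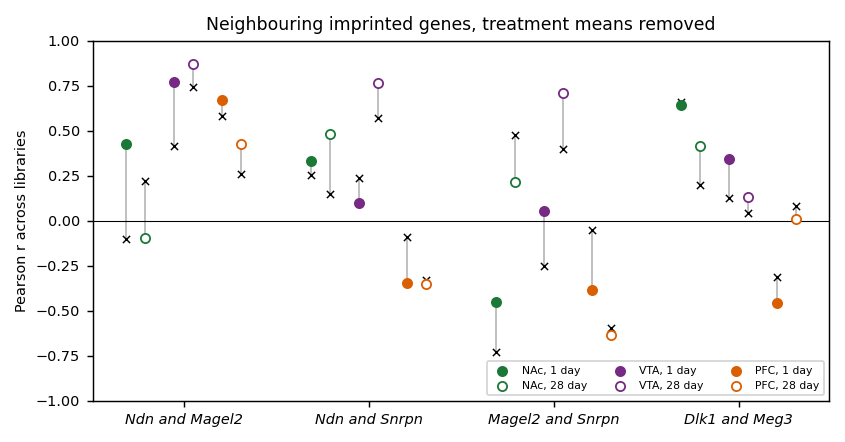
Pearson r across the libraries of each table for 4 pairs of clustered genes, treatment means removed, colored by region with filled circles for 1 day and open circles for 28 days. Crosses joined by a gray line give r without the 2 libraries farthest from the median of the first gene; Ndn and Magel2 lie highest in VTA, and the pairs with Snrpn fall on both sides of 0.

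Across all 71 libraries, which share the differences between regions, the gene outside the family with the level most like each member was found by Pearson's r of log2 levels among 15017 genes. For Dlk1 it was Rtl1, an imprinted gene of the same cluster on chromosome 12, with r = 0.987, nearly level with Slc10a4 at r = 0.986. Rtl1 was weakly expressed, with a mean saline level of 0.967 RPKM, and 0.0205 RPKM in PFC at 1 day. Peg3 was most like Gprasp2 (r = 0.97), Grb10 most like Fam70a (r = 0.98) and Magel2 most like Gabre (r = 0.96). Snrpn was most like Prkar1b (r = 0.95), Nnat most like Ivd (r = 0.95), Meg3 most like 2410089E03Rik (r = 0.95), Ndn most like Arl10 (r = 0.94) and Zrsr1 most like Gm13910 (r = 0.92). Plagl1 had the weakest best match, Arxes2 with r = 0.57.

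The wider set of imprinted genes was described in the same way. Of 50 other imprinted genes listed, 46 were found in the tables and 0 were called in any comparison, while 22 had an unadjusted p under 0.05 in at least 1 of the 6. The share of all genes under 0.05 in at least 1, or in at least 2, of the comparisons was not computed, and the shares by comparison follow. In VTA at 28 days, 6 of the 42 tested had an unadjusted p under 0.05, all with higher levels after cocaine, beside 11.5% of all genes (5.08% higher), and the median log2 difference was 0.09, against 0.32 for the 10 members. In NAc at 28 days it was 7 of 42, again all with higher levels, beside 6.76% of all genes (3.34% higher), with a median of 0.12 against 0.13 for the members. In VTA at 1 day it was 10 of 39, with 6 higher and 4 lower, beside 15.4% of all genes (11.1% higher and 4.29% lower), and a median of -0.02 against 0.10 for the members. In NAc at 1 day it was 2 of 40 and in PFC at 28 days 2 of 41, each with 1 higher and 1 lower, and in PFC at 1 day 0 of 34 by limma, beside 4.01%, 5.66% and 4.15% of all genes. The highest saline levels were those of Gnas, the stimulatory G protein alpha subunit, at 305 RPKM, Nap1l5 at 219 RPKM, the noncoding RNA Rian of the Meg3 cluster at 131 RPKM, Impact at 110.4 RPKM and Ddc, the enzyme that makes dopamine from L-DOPA, at 103 RPKM.

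Of the other imprinted genes, 5 had an unadjusted p under 0.05 in at least 2 comparisons. Atp10a, a maternally expressed phospholipid transporter, had log2 differences of 0.42 ± 0.10 (SE) in NAc and 0.87 ± 0.22 (SE) in VTA at 1 day, with adjusted p-values of 0.531 by edgeR and 0.120 by limma. Usp29, described above in VTA, had a log2 difference of 0.32 ± 0.08 (SE) in NAc at 28 days, with an adjusted p of 0.592 by edgeR. Kcnk9, a potassium channel, had 0.56 in VTA at 1 day and 0.25 in NAc at 28 days, and Igf2r, the receptor that clears insulin-like growth factor 2, had 0.15 and 0.18. Ddc had -0.58 in VTA at 1 day, where the dopamine neuron markers were also lower, and -0.35 in PFC at 28 days.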

How the data were processed

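RNA-seq libraries from 3 brain regions at 2 abstinence times were analyzed as deposited by the authors, who aligned the reads to mm9 with STAR 2.4.1d. The counter, its strand setting and the library kit were not given in the sources used here. Per the file headers and values, the authors deposited raw read counts per gene for NAc at 1 day and for all regions at 28 days. For VTA and PFC at 1 day they deposited RPKM values. Whole reads were recovered from the RPKM steps for 100% of genes (23806 in VTA and 23353 in PFC, tolerance 0.001), and the gene lengths these steps imply were used to compute RPKM for every table, with no further scaling between tables. The 30 columns of food groups were not used, nor were the authors' fold changes and p-values.

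Count tables were tested with edgeR 4.0.16 (quasi-likelihood, TMM, filterByExpr set to 10 reads per library and 15 in total), and RPKM tables with limma 3.58.1. RPKM values entered limma as log2 after adding 0.1, which shrinks the differences of weakly expressed genes, and a gene was kept when its average reached 0.5 RPKM. The count test on recovered reads called 55 genes in VTA and 1 in PFC. Benjamini-Hochberg adjustment ran over all genes, and tests were two-sided. Correlations used permutation tests with 100000 resamples. Alternatives were DESeq2 1.42.0, other scaling, no filter, another pseudocount, a replicate block, covariates and leaving out each library. The fitting code was tested on simulated data. Analyses ran in R 4.3.3 and Python 3.11.15.

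The members and lists were chosen with earlier results of these data known. A member was given with per-library values in a comparison where its unadjusted p was under 0.05, and otherwise by ranges. Other imprinted genes were named when called, when their unadjusted p was under 0.05 in at least 2 comparisons, or as the 5 most abundant; the gene most like each member was the one with the highest r. Nnat in VTA at 1 day was described after its values were seen. At 28 days the columns carried no sample number of the labels, and libraries are numbered as in the tables. The labels do not say that libraries of a group came from separate mice, so p-values measure the spread between libraries, which may be technical in part. Depths of 20971967 to 49700932 reads left at least 25 reads for every member in every library; no 2 libraries of a table held identical values.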

Additional observations from a re-analysis of the deposited data

Results flagged for a closer look

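In 13 of 120 groups of 5 or 6 libraries, 1 library stood apart from the rest of its group by Dixon's criterion at the 95% level. Chance flags about 1 in 20 groups where values are normally distributed. The criterion was applied to RPKM values without a log, and all 13 flagged values were the highest of their group. Several fell in the same few libraries. In VTA at 28 days, cocaine library 2 had 11.2 RPKM of Magel2 against 5.28 to 6.42 in the other 5 and 8.50 RPKM of Plagl1 against 4.53 to 5.60. Saline library 1 had 579 RPKM of Snrpn against 343 to 371 in the other 4 and 20.1 RPKM of Zrsr1 against 16.3 to 17.3. Both libraries carried high hypothalamic marker sums (709 and 1362 RPKM), and their part in these values was not tested.

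In the same table cocaine library 4 had 459 RPKM of Nnat against 226 to 294 in the others. In VTA at 1 day, cocaine library 6 had 834 RPKM of Nnat against 192 to 393. In NAc at 1 day, cocaine library 5 had 3.64 RPKM of Magel2 against 0.306 to 1.22 and 109 RPKM of Peg3 against 71.1 to 84.5. In NAc at 28 days, cocaine library 4 had 319 RPKM of Meg3 against 159 to 208, and saline library 2 had 20.8 RPKM of Grb10 against 13.5 to 15.8.

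In PFC, saline library 4 at 28 days had 11.8 RPKM of Dlk1 against 0.641 to 1.63, beside the striatal markers given with that result. Saline library 1 at 1 day had 0.904 RPKM of Magel2 against 0.246 to 0.363, and cocaine library 5 at 1 day had 23.9 RPKM of Zrsr1 against 19.2 to 20.95.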

How the results depend on the processing

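No member was called under any alternative. The 13 member differences with an unadjusted p under 0.05 kept their direction in 214 of 215 refits; the exception was Dlk1 in VTA at 1 day, at 0.0875 with the dopamine markers as a covariate. The number of genes called depended on the tool: with DESeq2 it was 21 in NAc at 1 day, 14, 74 and 2 in NAc, VTA and PFC at 28 days, and 10 for the change in NAc. In VTA at 1 day it was 2 without a filter, 55 by edgeR on recovered reads, 13 with the replicate block and 0 with the dopamine covariate, and in NAc at 1 day 5 with the cortical covariate. The number of members with an unadjusted p under 0.05 was 2 in VTA at 1 day by edgeR on recovered reads and 2 with the dopamine covariate, 1 in NAc at 1 day with the cortical covariate (Peg3), and 0 in PFC at 28 days with DESeq2, which gave Dlk1 no p. In the same order, the number among all genes was 2729 of 16132, 2138 of 15042, 779 of 15878 and 925 of 16340. The causes were not tested.

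Leaving out 1 library gave 0 to 2 genes called in NAc and PFC at 1 day, 0 to 54 in VTA at 1 day (54 without cocaine library 6, 0 without cocaine library 3 or saline library 1), 0 to 2 in NAc at 28 days, 0 in VTA and PFC at 28 days, and 1 to 5 for the change in NAc. Members with an unadjusted p under 0.05 numbered 0 to 1 in NAc and PFC at 1 day and for the change in NAc, 1 to 4 in VTA at 1 day, and 1 to 5, 3 to 7 and 0 to 3 in NAc, VTA and PFC at 28 days. The number of all genes under 0.05 moved as well, from 1704 to 2853 in VTA at 1 day. At 28 days it ran from 702 to 1494 in NAc, 1118 to 3732 in VTA and 699 to 1232 in PFC. Members not overlapping between NAc and VTA at 28 days numbered 5 to 8, the latter without NAc saline library 2. The other counts between regions stayed within 1.5 times.

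The replicate numbers at 1 day were not shown to pair the libraries: deviations of same-numbered libraries correlated from -0.57 to 0.70 in NAc, -0.29 to 0.49 in VTA and -0.19 to 0.10 in PFC. With the block, members with an unadjusted p under 0.05 numbered 3 in place of 4 in VTA, and all genes under 0.05 numbered 2572 in place of 2323. At 28 days no paired analysis was possible because the columns carry no number of the labels. Low read numbers limit Magel2 and Dlk1 in PFC.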
